A study of Danio rerio with 18 samples.

Results

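The znf genes are the zebrafish genes whose name is znf followed by a number, a running number given to genes that encode predicted zinc finger proteins. Of 340 gene identifiers with such a name, taken from the names in the deposited files and leaving out 2 others, 173 had raw counts that summed to 180 or more over the 18 libraries and are described here, out of 32520 genes in all. Among these names the selection used the total count alone and no difference between groups, but it was made with earlier results of these data known. The total includes the control reads, so scarce members could pass the minimum only through a group in which they were high. The other 167 stayed under the minimum, 5 of them with no read in any library. The members nearest the minimum were znf1089 and znf362a with 181 reads each and one znf1015 identifier with 182, and the nearest left out were znf1025 with 176, znf1183 with 173 and znf1177 with 169.

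The libraries were made from total RNA of whole zebrafish embryos at 4 h post-fertilisation. The embryos of the cocktail groups received RfxCas13d, an RNA-guided ribonuclease that cuts transcripts matched by its guide RNA (gRNA), with 1 of 8 cocktails of 25 gRNAs each, 200 gRNAs in all, at a stated 10 pg per embryo that the labels do not assign to a single gRNA or to a whole cocktail. They were compared with the RfxCas13d control, so that the nuclease was common to all groups. Each of the 9 groups had 2 libraries, and the study set out to test how well computational models built outside the animal predict depletion of transcripts in the embryo. The gRNA sequences and targets are not used here, so no znf gene can be called a target or a bystander. The labels do not say whether the 2 libraries of a group came from separate injections, so p-values measure the spread between these libraries, which may be technical.

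Zinc finger proteins of this kind carry repeated small domains in which cysteines and histidines hold a zinc ion, and most bind DNA with them, though some bind RNA or other proteins. Genes with low znf numbers are mainly ones whose counterpart is known in other vertebrates, such as znf143 or znf281. The high numbers were given largely to genes of a fish-specific expansion with many near-identical copies, whose individual functions are mostly not known. Around 4 h post-fertilisation the embryo passes control from maternal RNA to its own genome, and many genes of that expansion are known to be transcribed in this period. The members were divided by their number into 76 below 900 (of 99 identifiers) and 97 at 900 or above (of 241). This division was chosen with earlier results of these data known. Reads shared by near-identical copies could not be assigned to one of them with certainty, so values of single genes in the second class are uncertain.

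Gene counts per library ran from 2544027 to 4864939, of which the members held 0.651% to 0.772%. Unmapped reads were 21.6% to 47.3% of all reads in the cocktail libraries, against 10.1% and 10.8% in the controls. Summed enveloping layer markers, the genes of the outer cell sheet of the embryo, reached 33.0 to 3516 CPM (counts scaled to a common library total, after TMM scaling) with a median of 2196 in cocktails, against 7828 and 7338 in controls, and 11 of 14 tested were lower. Yolk syncytial markers summed to 4.05 to 898 CPM in cocktails, against 1098 and 1065 in controls, with 5 of 6 lower; the sixth, mxtx2, averaged 350 CPM in cocktails and 237 CPM in controls and did not pass the test. In turn oocyte and maternal markers summed to 1764 to 4247 CPM in cocktails, against 1043 and 1038 in controls, with 7 of 11 higher. Early embryo regulators summed to 2259 to 4372 CPM in cocktails, below both controls at 5311 and 5290 CPM, with 2 of 7 lower and 1 higher. None of these markers was at 0 in every library. Replicate 1 of cocktail 1 stood apart with the lowest enveloping layer (33.0 CPM), yolk syncytial (4.05 CPM) and early embryo (2259 CPM) sums. It also had the highest maternal sum (4247 CPM). Without it these sums were, in the same order, 1183 to 3516, 364 to 898, 3152 to 4372 and 1764 to 3442 CPM over the other cocktail libraries. Where this library alone moves the low end of a CPM range that follows by a wide margin, the lowest of the others is given for the genes described by name. The part of these differences in what follows was not tested, and in whole embryos fewer cells of a type cannot be told apart from less RNA per cell.

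In the mean of the 8 cocktails, the high-numbered znf genes were lower than in the control far more often than higher, whereas the low-numbered ones moved both ways. Of the 97 members numbered 900 or above, 31 fell (32.0%), 2 rose (2.06%, znf1014 and znf1028) and 64 did not pass the test (edgeR's quasi-likelihood test, Benjamini-Hochberg adjusted p under 0.05 over 14514 genes, no fold minimum). Of the 76 members below 900, 12 fell (15.8%), 11 rose (14.5%) and 53 did not pass. Over all 173 members, 43 fell and 13 rose, against a background of 13.6% of all tested genes lower and 15.1% higher. The share that fell below number 900 was thus close to the background and that at 900 or above was larger; the difference between the shares was not tested. All 173 passed the filter on low counts.

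The median log2 fold change, cocktails minus control, was -0.67 at 900 or above, with quartiles at -1.34 and 0.05, and 0.16 below 900, against 0.03 over all genes tested. Of the high-numbered genes 70 had a negative and 27 a positive fold change. Those that fell did so by a log2 fold change between -2.52 and -0.66, while those below 900 that fell ranged from -1.57 to -0.38. All 16 cocktail libraries lay below both controls for 23 high-numbered and 10 low-numbered members, and above both for 2 and 8, beside a background of 12.3% and 11.9% of all tested genes. Split at the class median of 7.24 CPM, the 48 more abundant high-numbered genes held 18 that fell and 2 that rose with a median of -0.47, and the 49 less abundant ones 13 and 0 with a median of -0.91. Some of the less abundant ones may have passed the count minimum only through their control reads, and the effect on this median was not tested. Genes called lower were picked with both controls, so keeping their sign without 1 control is partly fixed in advance. For the other fits that follow, the shares of all tested genes called were not counted. Those fits also tested other sets of genes, such as 15525 genes without replicate 1 of cocktail 1. Leaving out control replicate 1 left 12 high-numbered genes called lower and 1 higher, and leaving out control replicate 2 left 9 and 0; all 31 kept a negative sign in both. The same omissions left 3 lower and 4 higher, and 2 lower and 7 higher, below 900, and limma on log2(TPM + 1) called 2 lower and 9 higher there. Without replicate 1 of cocktail 1, 34 high-numbered genes were called lower and 3 higher.

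**Figure D1:**
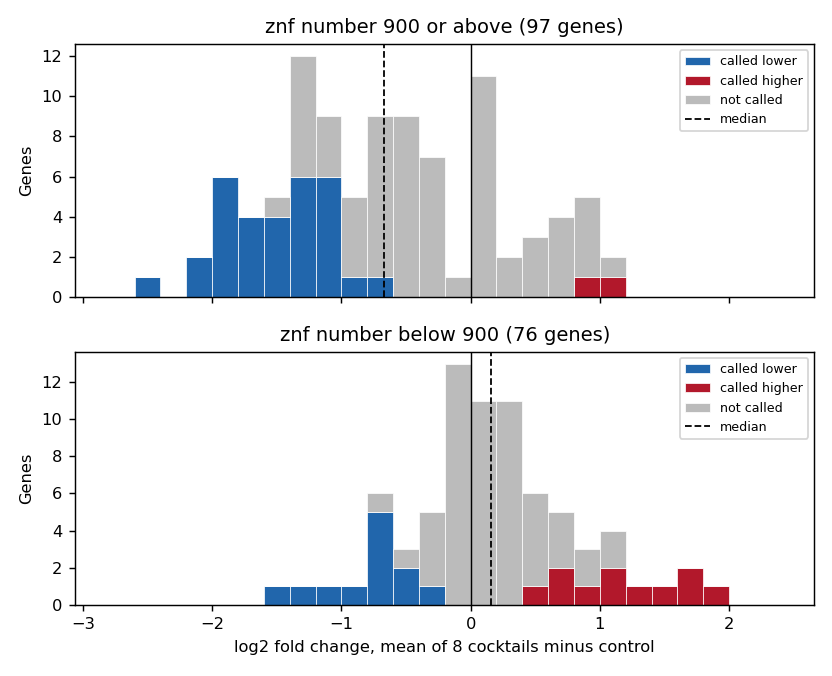
Number of znf genes (vertical axis) by log2 fold change, mean of the 8 cocktails minus control (horizontal axis), for numbers of 900 or above in the upper panel and below 900 in the lower panel. Blue marks genes called lower, red called higher and grey not called, and the dashed lines mark the medians of -0.67 and 0.16.

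Library by library, the high-numbered class was lower in every cocktail library. Its median log2 CPM, minus the mean of the controls, was -1.55 and -0.88 in cocktail 1, -0.73 and -0.72 in cocktail 2, -0.75 and -0.79 in cocktail 3, -0.79 and -0.83 in cocktail 4, -0.55 and -0.50 in cocktail 5, -0.43 and -0.33 in cocktail 6, -0.57 and -0.45 in cocktail 7 and -0.41 and -0.37 in cocktail 8, against -0.05 and 0.05 in the controls. Every library of cocktails 1 to 4 thus lay below every library of cocktails 5 to 8, an order noticed in the data and not tested. The low-numbered class ran from -0.13 to 0.36 in cocktails, against -0.05 and 0.05 in controls. In TPM (transcript abundances scaled by gene length), the high-numbered members summed to 1360 to 2955 with a median of 2674 in cocktails (from 2000 without replicate 1 of cocktail 1), against 3758 and 3871 in controls, and the low-numbered ones to 3246 to 4256 in cocktails, against 3448 and 3478 in controls. The 144 high-numbered identifiers under the count minimum, which the selection left out, summed to 71.6 to 201 CPM with a median of 146 in cocktails (from 96.9 without replicate 1 of cocktail 1), against 223 and 251 CPM in controls, so they too were lower in every cocktail library. Reads assigned to several places were 2.73% to 4.70% of mapped reads in cocktails (from 4.03% without replicate 1 of cocktail 1), against 4.80% and 4.79% in controls, and whether reads lost from copies shift these sums was not tested.

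**Figure D2:**
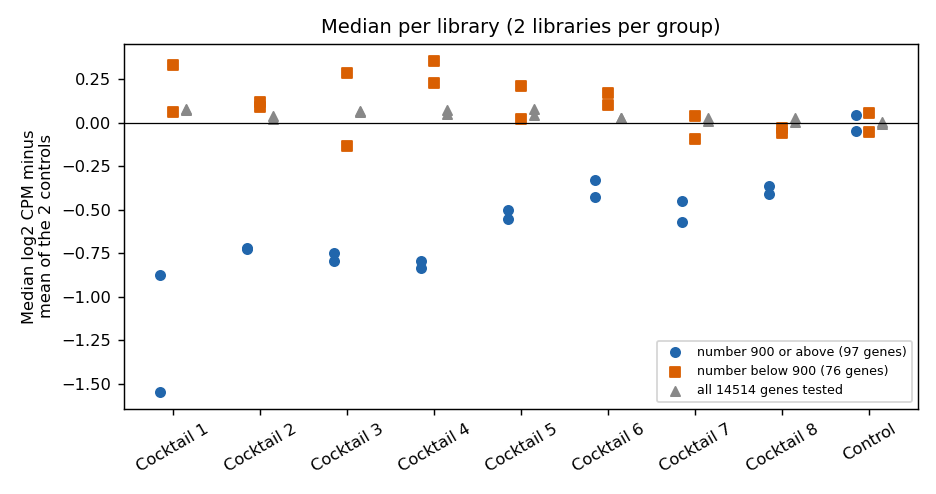
Median log2 CPM of each library minus the mean of the 2 controls (vertical axis) for the 8 cocktails and the control (horizontal axis), 2 libraries per group. Blue circles are znf genes numbered 900 or above, orange squares those below 900 and grey triangles all 14514 genes tested; every blue cocktail point lies below the controls, down to -1.55.

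The 10 largest decreases among members whose 16 cocktail libraries all lay below both controls were all in the high-numbered class, and no individual role is given here for these genes. znf1109 had 0.310 CPM in the lowest cocktail library, a median of 2.70 and 5.28 in the highest, against 11.7 and 12.0 CPM in the controls. The gene was scarce, with 236 reads over the 18 libraries, and it reached the minimum of 180 only with its control reads. Its selection was thus not independent of its control level. The log2 fold change was -2.52 ± 0.46 (SE, edgeR adjusted p = 0.000327). znf1060 had 0, 6.03 and 13.5 CPM as lowest, median and highest value in cocktails, against 31.6 and 19.6 CPM in controls (log2 fold change -2.15 ± 0.44, edgeR adjusted p = 0.000850). Its single library without a read was replicate 1 of cocktail 1, and the next lowest cocktail library had 1.93 CPM. znf1065, the most abundant of the 10 with 211 TPM in the control, had 1.89, 21.6 and 39.9 CPM in cocktails, against 66.3 and 61.5 CPM in controls (log2 fold change -1.75 ± 0.30, edgeR adjusted p = 0.000201). Without replicate 1 of cocktail 1 its lowest value was 10.3 CPM.

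The other 7 of these genes were znf1066, znf1147, znf1119, znf1140, znf1064, znf1146 and the znf1053 identifier ENSDARG00000098270, with log2 fold changes between -2.06 and -1.72. Their cocktail medians were 3.84 to 8.44 CPM, against 11.1 to 31.3 CPM over the control libraries. A second identifier named znf1053 fell as well, by 1.53 on the log2 scale, and reads could pass between them; without control replicate 2 its log2 fold change was -0.95 (edgeR adjusted p = 0.314). The calls of znf1109, znf1065, znf1066 and znf1119 held in all 18 fits that left out 1 library. Without control replicate 2 the edgeR adjusted p was 0.184 for znf1147, 0.0992 for znf1146, 0.0711 for znf1064, 0.0567 for znf1140 and 0.0539 for this znf1053, and without control replicate 1 it was 0.0792 for znf1060. Among genes named after their values were seen, znf1035 had 48.3, 84.6 and 152 CPM as lowest, median and highest value in cocktails, against 203 and 238 CPM in controls, and its log2 fold change was -1.39 ± 0.22 (edgeR adjusted p = 8.1e-05). Replicate 1 of cocktail 1 was its highest cocktail library, unlike for znf1065, and the call held in all 18 fits.

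**Figure D3:**
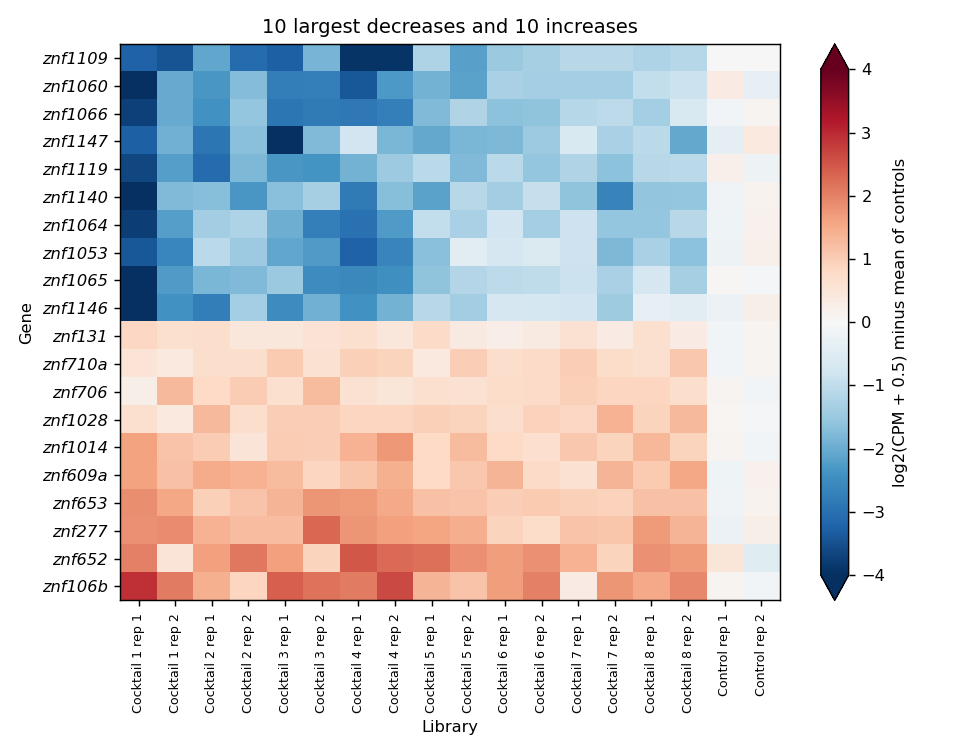
Rows are znf genes called in the mean of the cocktails, with all 16 cocktail libraries beyond both controls. Their mean was at least 5 CPM in the higher group, which for decreases is the control. They are the 10 largest of 28 such decreases and all 10 such increases. Columns are the 16 cocktail libraries followed by the 2 controls. Colour is log2(CPM + 0.5) minus the mean of the controls, with values beyond 4 in either direction shown at the end of the scale. Blue rows (lower) end with near-white control columns, as do red rows (higher).

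znf1004 was the most abundant member, with 761 TPM in the control and a median of 482 TPM in cocktails. It had 0.811 CPM in replicate 1 of cocktail 1 and 397 CPM in replicate 2 of the same cocktail, while the 14 libraries of the other cocktails ran from 292 to 658 CPM, against 703 and 624 CPM in the controls. All cocktail libraries but 1 thus formed a single range, and that one held almost no read of the gene. Over all libraries its log2 fold change was -0.94 ± 0.87 (edgeR adjusted p = 0.472) and did not pass the test. Without replicate 1 of cocktail 1 it was -0.83 ± 0.13 (edgeR adjusted p = 2.63e-05), and without replicate 2 of cocktail 1 it was -1.92 (edgeR adjusted p = 9.76e-11). In this fit the call of the gene thus depended on which libraries of cocktail 1 were included. Without the filter on low counts it was called over all 18 libraries (log2 fold change -0.97, edgeR adjusted p = 6.01e-08).

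In replicate 1 of cocktail 1, 30 of the 97 high-numbered genes were under 10% of the control mean, against 0 to 6 in the other cocktail libraries. Of the 76 low-numbered genes it was 1, against 0 to 2 in the other cocktail libraries. The same count over all tested genes was not made, so it is not shown to be particular to these genes. Of the 30, 19 were among those called lower in the mean of the cocktails. znf1091 had 0 CPM in that library and 12.2 to 23.5 CPM in the other 15 cocktail libraries, against 15.7 and 13.0 CPM in controls. Likewise znf1063 had 0.540 CPM there and 6.75 to 49.7 CPM elsewhere among cocktails, against 45.6 and 40.4 CPM in controls. The 3 members with no read in it were znf1091, znf1060 and znf999, and 3 of the 30 (znf1091, znf1127 and znf1116) were above both controls in replicate 2 of the same cocktail. This library was the lowest of all for 38 high-numbered and 5 low-numbered genes, and the highest of all for 2 high-numbered and 15 low-numbered ones. These counts were not made over all tested genes either. Its enveloping layer sum, given above, was 33.0 CPM, against 1931 CPM in replicate 2.

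**Figure D4:**
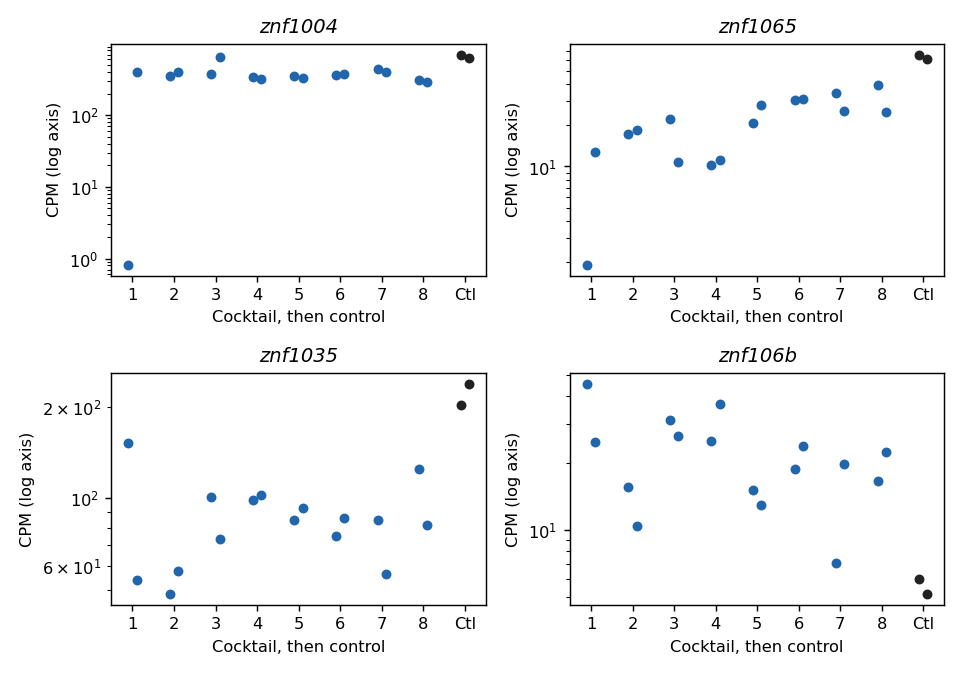
CPM on log axes (vertical) of znf1004, znf1065, znf1035 and znf106b in each library, by cocktail 1 to 8 in blue and control (Ctl) in black, 2 points per group. The lowest points of znf1004 (0.811 CPM) and znf1065 (1.89 CPM) are replicate 1 of cocktail 1, whereas that library is the highest of the cocktails for znf1035 (152 CPM) and znf106b (45.7 CPM).

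The 10 called increases with all 16 cocktail libraries above both controls held 8 low-numbered genes and the high-numbered znf1014 and znf1028. znf106b, a copy of the gene for an RNA-binding zinc finger protein studied in mouse motor neurons, had 7.08, 21.2 and 45.7 CPM as lowest, median and highest value in cocktails, against 5.99 and 5.12 CPM in controls (log2 fold change 1.88 ± 0.40, edgeR adjusted p = 0.00116). znf277, whose human counterpart binds a protein of the small ribosomal subunit, had 30.4, 49.1 and 91.2 CPM in cocktails, against 15.4 and 21.1 CPM in controls (1.48 ± 0.26, edgeR adjusted p = 0.000252). znf653 had 52.2, 61.8 and 99.2 CPM in cocktails, against 24.7 and 30.1 CPM in controls (1.29 ± 0.21, edgeR adjusted p = 8.5e-05). These 3 genes kept their calls in all 18 fits that left out 1 library.

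znf706, a small protein that restrains Klf4 in mouse embryonic stem cells, was the most abundant of those that rose, with 173, 247 and 365 CPM in cocktails, against 138 and 159 CPM in controls (log2 fold change 0.79 ± 0.21, edgeR adjusted p = 0.00611). In TPM it ran from 306 to 532 in cocktails, against 200 and 229 in controls, at rank 3 of the members in cocktails and rank 5 in the control. The others were znf652 (log2 fold change 1.69), znf609a (1.20), znf1014 (1.09), znf1028 (0.95), znf710a (0.77) and znf131 (0.53). In mouse neural progenitors the ZNF609 protein binds the cohesin loader NIPBL and the Integrator complex. The edgeR adjusted p without control replicate 1 was 0.0518 for znf706, 0.0519 for znf609a, 0.139 for znf710a, 0.123 for znf1028 and 0.244 for znf131, and without control replicate 2 it was 0.130 for znf706, 0.109 for znf652, 0.0885 for znf1014, 0.189 for znf1028 and 0.0817 for znf131. znf296, a partner of Klf4 in mouse cell reprogramming, rose too (log2 fold change 1.70 ± 0.40, edgeR adjusted p = 0.00308), but its 2 libraries of cocktail 8 had 9.10 and 3.68 CPM, the second below the controls at 4.15 and 5.72 CPM. Without control replicate 1 its adjusted p was 0.0916.

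Both members of the NET family, co-repressors that act in hindbrain and eye development of zebrafish, were lower. znf503 had 27.2, 42.0 and 59.5 CPM as lowest, median and highest value in cocktails, against 63.8 and 80.4 CPM in controls (log2 fold change -0.77 ± 0.22, edgeR adjusted p = 0.00989), with no overlap. znf703 had 4.86, 15.8 and 30.4 CPM in cocktails, against 25.1 and 28.3 CPM in controls (-0.87 ± 0.32, edgeR adjusted p = 0.0470), and its groups overlapped; without replicate 1 of cocktail 1 the lowest was 8.53 CPM. The call of znf703 held in 6 of the 18 fits that left out 1 library, and that of znf503 was lost without control replicate 2 (adjusted p = 0.227). limma on TPM called neither (adjusted p = 0.133 for znf503 and 0.233 for znf703).

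Of the 24 members listed as regulators of chromatin and transcription, 4 fell, 3 rose and 17 did not pass the test, with a median log2 fold change of 0.26. The 16.7% that fell and the 12.5% that rose lay near the background of 13.6% and 15.1%. Both copies of znf281, a regulator of pluripotent cells in mammals, were lower. znf281a had 5.15, 10.9 and 21.1 CPM in cocktails, against 23.2 and 25.6 CPM in controls (-1.11 ± 0.30, edgeR adjusted p = 0.00732), and znf281b had 144, 386 and 498 CPM in cocktails, against 511 and 540 CPM in controls (-0.53 ± 0.19, edgeR adjusted p = 0.0434). Neither pair of groups overlapped, but the call of znf281b held in 5 of 18 fits that left out 1 library. With the replicate block the call of znf281b was lost (edgeR adjusted p = 0.0527). The call of znf281a was lost without control replicate 1 (log2 fold change -1.04) and without control replicate 2 (-1.18). znf292a (-0.69), a large protein whose human gene is linked to neurodevelopmental disorders, and znf318 (-0.59), which governs the choice between IgM and IgD transcripts in mouse B cells, also fell. znf131, znf652 and znf711 rose, the last by 0.84 ± 0.29 (edgeR adjusted p = 0.0355); human ZNF711 works with a histone demethylase and is linked to intellectual disability. Leaving out control replicate 1 or 2 ended the calls of znf292a (log2 fold change -0.72 and -0.67), znf318 (-0.77 and -0.38) and znf711 (0.59 and 1.13). The call of znf318 was also lost without replicate 1 of cocktail 2, 4, 5 or 6, and that of znf711 without replicate 1 of cocktail 6. Without the filter the edgeR adjusted p of znf318 was 0.0546. With limma on TPM, znf281a (adjusted p = 0.267), znf281b (0.322), znf292a (0.290), znf318 (0.428) and znf711 (0.0698) were not called. The increases of znf131 and znf652 were still called with it.

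Among those that did not pass, znf143a and znf143b, activators of small nuclear RNA genes, had log2 fold changes of 0.17 ± 0.22 and 0.76 ± 0.31. The edgeR adjusted p of znf143b was 0.0677, and without the filter on low counts this gene was called higher (0.74, edgeR adjusted p = 0.0496). For znf217, an oncogene in human breast cancer, the log2 fold change was 0.07 ± 0.22. znf410, which in mammals controls a chromatin remodeller gene, had 0.32 ± 0.28, and znf451, a SUMO ligase in human cells, had 0.31 ± 0.31. The 3 members listed for ribosomes and translation did not pass either. They were znf598, which marks collided ribosomes (0.38 ± 0.22, edgeR adjusted p = 0.212), znf622, a factor of large subunit maturation (0.15 ± 0.17, edgeR adjusted p = 0.550), and znf593, linked to export of that subunit (0.17 ± 0.19, edgeR adjusted p = 0.529). For znf622 the cocktails ran from 123 to 188 CPM, against 128 and 147 CPM in controls.

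Of the 2 members listed for RNA binding, znf346, which binds double-stranded RNA, fell and znf326, which links RNA polymerase II to splicing, did not. znf346 had 200, 248 and 377 CPM as lowest, median and highest value in cocktails, against 384 and 449 CPM in controls (-0.66 ± 0.14, edgeR adjusted p = 0.00128). All 16 cocktail libraries lay below both controls, and without control replicate 1 the adjusted p was 0.0881. znf326 had 108, 134 and 190 CPM in cocktails, against 140 and 141 CPM in controls (-0.01 ± 0.14, edgeR adjusted p = 0.971). The mitotic regulators znf207a and znf207b, whose human counterpart carries the checkpoint protein BUB3 to kinetochores, had -0.22 ± 0.16 and -0.16 ± 0.26 and did not pass.

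The remaining low-numbered genes that fell were znf569l, znf654, znf646, znf106a and znf740a, named because they complete the 12. znf569l had 2.43, 16.2 and 32.0 CPM as lowest, median and highest value in cocktails, against 34.9 and 43.8 CPM in controls (log2 fold change -1.57 ± 0.29, edgeR adjusted p = 0.000303), and its call held in all 18 fits that left out 1 library. Its lowest value without replicate 1 of cocktail 1 was 6.71 CPM. znf654 had 14.4, 24.1 and 39.9 CPM in cocktails, against 47.2 and 68.7 CPM in controls (-1.22 ± 0.24, edgeR adjusted p = 0.000637), with an adjusted p of 0.0805 without control replicate 2. znf646 (-0.77) and znf106a (-0.73) lost their calls without either control. The call of znf740a (-0.38) held in 4 of 18 fits that left out 1 library, and its adjusted p was 0.123 without the filter, 0.0606 with the replicate block and 0.287 with limma on TPM. Besides those already named, the only low-numbered gene that rose was znf710b (1.08 ± 0.39, edgeR adjusted p = 0.0402), called in 9 of 18 fits that left out 1 library.

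Of all 56 calls, 9 held in all 18 fits that left out 1 library. They were the decreases of znf1109, znf1066, znf1119, znf1065, znf569l and znf1035 and the increases of znf653, znf277 and znf106b. Of these, znf1109 reached the count minimum only with its control reads. The same 9 were called with DESeq2, with limma on TPM, without the filter, with other size factors and with a replicate block.

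In TPM, the most abundant members of the control after znf1004 were znf395a (492), a hypoxia-induced factor in human cells, znf207a (272), znf346 (260), znf706 (215), znf1065 (211), znf576.2 (186), znf281b (171), znf593 (144) and znf740a (126). In cocktails znf1004 and znf395a kept the first and second place, whereas znf1065 took place 16 with a median of 81.4 TPM, against 209 and 213 TPM in controls. The low-numbered class had a median of 24.9 TPM in cocktails and 19.3 TPM in the control, and the high-numbered class 15.4 TPM in cocktails and 23.9 TPM in the control. Differences in rank between genes a few TPM apart lie within the spread of the libraries.

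Of the members, 13 pairs of members carry names that mark them as copies (a and b, or a first and a second after a point). In the edgeR fit over all 18 libraries, the copies of znf106 were the only pair called in opposite directions. znf106a fell to 37.1, 56.0 and 87.3 CPM as lowest, median and highest value in cocktails, against 89.4 and 97.9 CPM in controls (log2 fold change -0.73 ± 0.20, edgeR adjusted p = 0.00922), while znf106b rose as given above. The call of znf106a was lost without control replicate 1 (log2 fold change -0.79) and without control replicate 2 (-0.66). It was also lost with limma on TPM (adjusted p = 0.272). The log2 ratio of znf106a to znf106b ran from 0.47 to 3.31 in cocktails, against 3.77 and 4.11 in controls, so all 16 cocktail ratios lay below both controls. For znf609, the log2 ratio of the a to the b copy was -0.98 to 0.04 in cocktails, against -1.83 and -1.74 in controls, with znf609a called higher and znf609b at -0.13 ± 0.16. For znf740 it was 0.23 to 1.71 in cocktails, against 1.73 and 1.96 in controls, with znf740b at 0.41 ± 0.17. These were the 3 of 13 pairs whose 16 ratios all lay beyond both controls. The share of such ratios among other pairs of genes was not counted, and the differences between copies were not tested. As single genes, 12.3% of all tested genes had all 16 cocktail libraries below both controls and 11.9% above both. The copies of znf281 both fell and those of znf710 both rose.

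**Figure D5:**
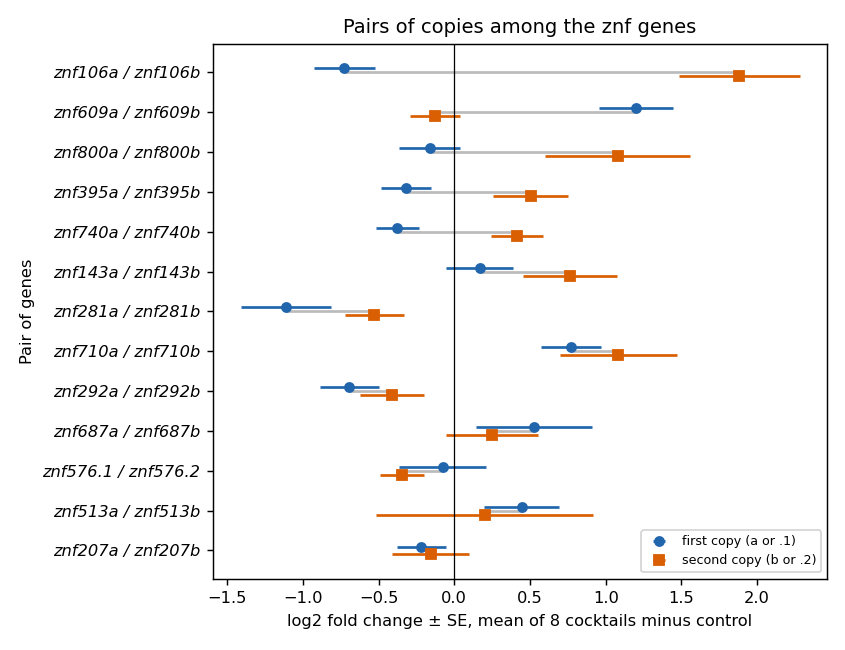
log2 fold change with SE, mean of the 8 cocktails minus control (horizontal axis), of both copies of 13 pairs of znf genes (rows), the first copy as a blue circle and the second as an orange square. The copies of znf106 lie farthest apart, at -0.73 and 1.88.

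Some symbols are borne by several identifiers, so that 173 members have 165 different names. The 2 members named znf1174 had log2 fold changes of -0.67 ± 0.47 and 0.74 ± 0.30, and neither passed the test. Of the 2 named znf1153 the more abundant fell (-0.66 ± 0.23, edgeR adjusted p = 0.0320) and the other was at -0.32 ± 0.30. That call held in 14 of 18 fits that left out 1 library, being lost without control replicate 1 (adjusted p = 0.344), control replicate 2 (0.107), replicate 2 of cocktail 5 or replicate 1 of cocktail 6, and its adjusted p was 0.0659 without the filter and 0.233 with limma on TPM. The 3 named znf1009 ran from -0.46 to 0.47 and the 3 named znf1015 from -0.21 to 0.62, none called.

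Taken singly against the control, the cocktails differed in how many members passed the test at 2-fold or more. Cocktail 1 had 34 lower and 14 higher (background 7.86% and 12.6% of tested genes), cocktail 2 had 13 and 5 (3% and 6.17%), cocktail 3 had 28 and 12 (7.7% and 11.5%), and cocktail 4 had 19 and 13 (6.69% and 11.4%). Cocktail 5 had 5 and 6 (3.47% and 9.38%), cocktail 6 had 3 and 5 (1.14% and 4.61%), cocktail 7 had 2 and 3 (1.67% and 4.52%), and cocktail 8 had 3 and 7 (2.25% and 6.32%). The 34 of cocktail 1 are 19.7% of the members, the 28 of cocktail 3 are 16.2% and the 19 of cocktail 4 are 11.0%, while the 3 of cocktail 6 and of cocktail 8 are 1.73% each, near the background. High-numbered genes made up 29, 11, 20 and 16 of the lower calls in cocktails 1 to 4 and 3, 2, 1 and 2 in cocktails 5 to 8. They were 29.9%, 11.3%, 20.6% and 16.5% of the 97 in cocktails 1 to 4. In cocktails 5 to 8 they were 3.09%, 2.06%, 1.03% and 2.06%, near the background of lower calls given above. All 8 comparisons share the 2 control libraries.

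These counts moved with single libraries, and the matching shares of all tested genes were not counted. For cocktail 1 there were 15 lower calls without its replicate 1 and also without control replicate 2, and 6, 7 and 8 higher without its replicate 1, control replicate 1 and control replicate 2. For cocktail 2 the lower calls were 2 to 4 without any 1 of its libraries or controls, and the higher ones 2 without its replicate 2 and 1 without control replicate 1. Cocktail 3 had 9, 17 and 13 lower and 7, 5 and 6 higher without its replicate 2, control replicate 1 and control replicate 2. Cocktail 4 had 8 to 12 lower without any 1 of its libraries or controls, and 8 and 6 higher without its replicate 1 and control replicate 1. In cocktails 5 and 6 the lower calls were 0 to 2 and 0 to 1 without any 1 of these libraries; the higher ones were 1 in cocktail 5 without control replicate 1, and 0 to 1 in cocktail 6 without any 1. In cocktail 7 they were 1, 0 and 1 lower without its replicate 1, its replicate 2 and control replicate 2, and 0 higher without either control, and in cocktail 8 they were 0, 1 and 0 lower without its replicate 1, control replicate 1 and control replicate 2, and 3, 1 and 3 higher without its replicate 2, control replicate 1 and control replicate 2.

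Genes from the ends of these lists, named after their values were seen, are given next. The values of znf1109 in cocktail 4, znf999 in cocktail 3 and znf1008 in cocktail 8 rest on very few reads. The size of these 3 fold changes is therefore uncertain, and znf1109 reached the count minimum only with its control reads. In cocktail 4, znf1109 had 0.322 and 0.310 CPM, against 11.7 and 12.0 CPM in controls (log2 fold change -5.08 ± 0.98, edgeR adjusted p = 0.000758). In cocktail 3, znf999 had 0.799 and 0.328 CPM, against 9.68 and 15.4 CPM in controls (-4.34 ± 1.00, edgeR adjusted p = 0.00327). In cocktail 8 znf1109 did not pass (-1.26 ± 0.72, edgeR adjusted p = 0.283), and znf1008 had 0.791 and 0.245 CPM, against 11.1 and 3.92 CPM in controls (-3.90 ± 1.25, edgeR adjusted p = 0.0461). znf1035 was among the calls of cocktails 5, 6, 7 and 8, at log2 fold changes of -1.31, -1.45, -1.65 and -1.10. In cocktail 6, znf346 had 200 and 215 CPM, against 449 and 384 CPM in controls (-1.01 ± 0.20, edgeR adjusted p = 0.00302).

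Each cocktail was also compared with the mean of the 7 others, a comparison in which a gene low in 1 cocktail alone would stand out. With edgeR no member was called in either direction in any of the 8 comparisons. The backgrounds over all tested genes, lower and higher, were 0.241% and 0.165% in cocktail 1, 0.0344% and 0.0344% in cocktail 2, 0.172% and 0.0896% in cocktail 3, 0.186% and 0.0207% in cocktail 4, 0.0689% and 0.248% in cocktail 5, 0.0551% and 0.241% in cocktail 6, 0.193% and 0.358% in cocktail 7, and 0.0896% and 0.22% in cocktail 8. Of the 1384 tests, an unadjusted edgeR p under 0.05 was found for 65 decreases and 87 increases. DESeq2 called 3 lower and 1 higher, and limma on TPM called 8 lower, all in cocktail 1. The matching shares of all tested genes were not counted, so these counts do not show a trait of the members. The nearest members in edgeR were named after their values were seen. They were znf569l in cocktail 1 (log2 fold change -1.78 ± 0.42, edgeR adjusted p = 0.0501), znf1118 in cocktail 7 (1.20 ± 0.30, edgeR adjusted p = 0.0690), znf1068 in cocktail 6 (1.92 ± 0.45, edgeR adjusted p = 0.0782) and znf296 in cocktail 8 (-1.57 ± 0.40, edgeR adjusted p = 0.117). DESeq2 called znf569l lower in cocktail 1 (adjusted p = 0.00446), znf1118 higher in cocktail 7 (0.0477) and znf296 lower in cocktail 8 (0.0330). It did not call znf1068 in cocktail 6 (0.0692). Without replicate 2 of cocktail 1, which leaves replicate 1 to stand for it, 18 were called lower and 3 higher, and without replicate 1 of cocktail 3 there were 4 and 2.

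Other zinc finger families were counted beside the znf genes. Of 82 tested members of 6 families (zbtb, klf, prdm, zic, zc3h and zfand), 12 fell (14.6%) and 16 rose (19.5%) in the mean of the cocktails, with a median log2 fold change of 0.15, beside 13.6% and 15.1% of all tested genes. The zbtb genes, whose proteins pair a BTB domain with zinc fingers, had 4 lower and 7 higher of 35, and the klf genes had 2 and 1 of 13. The prdm genes, which carry a PR domain related to histone methyltransferases, had 0 lower and 3 higher of 9. The CCCH-type zc3h genes, many of them RNA-binding, had 2 and 2 of 14, and the zfand genes, with AN1-type fingers, had 1 and 3 of 7. Of the 4 tested zic genes, early neural regulators, 3 fell, with a median of -1.79. Among the high-numbered znf genes the shares were 32.0% lower and 2.06% higher; the difference from these families was not tested.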

How the data were processed

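Total RNA of whole embryos was isolated with a column kit and made into libraries with Nextera XT, per the labels' protocols. The kit does not mark strand, so antisense reads cannot be separated from those of the gene they overlap. Per library the authors deposited whole-number read counts per gene, used as raw counts, and a table taken as TPM from its values. The submitters' processing notes name bcl2fastq 2.20 and danRer11; which aligner, counter and annotation were used is not given in the sources used here. The 4 rows naming no gene (22.6% to 55.5% of reads) were left out.

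Counts, with TMM scaling (trimmed mean of M values), were fitted with the quasi-likelihood test of edgeR 4.0.16 (robust, R 4.3.3), 1 coefficient per group over all 18 libraries, on 14514 of 32520 genes kept by its filter (minimum count 10). The mean of the cocktails was called at an adjusted p under 0.05, single cocktails also at 2-fold. CPM are TMM-scaled; log2 medians add a prior count of 2; SE is the log2 fold change over the root of F. The alternatives tried were limma 3.58.1 on log2(TPM + 1), no filter, DESeq2 1.42.0, RLE size factors, a fit of each cocktail with the control alone, a replicate block and leaving out each library. Only the edgeR comparison of the mean of the cocktails was tried on simulated data, with the same dispersion for every gene. The other comparisons and the alternatives were not. Named genes were the 10 largest decreases and increases among called members of at least 5 CPM with all cocktail libraries beyond both controls, the 10 most abundant, and members of the role lists. The members and lists were chosen with earlier results of these data known.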

Additional observations from a re-analysis of the deposited data

Results flagged for a closer look

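Members were listed when both libraries of 1 cocktail lay below both controls and both libraries of another lay above both. How many of all tested genes meet this rule was not counted, so the list does not show a trait of these members. The differences between the cocktails were not tested, and the comparisons share the 2 controls. The values are log2 fold changes against the control. znf217 was at -0.36 in cocktail 3 and 0.33 in cocktail 6, and znf326 at -0.32 in cocktail 6 and 0.35 in cocktail 1. znf532, part of a chromatin-associated complex in human cells, was at -0.99 in cocktail 8 and 0.82 in cocktail 1. znf618 was at -0.32 in cocktail 8 and 0.33 in cocktail 4, and znf687a at -0.27 in cocktail 8 and 1.40 in cocktail 4. znf704 was at -0.51 in cocktail 7 and 0.37 in cocktail 8, and znf770 at -0.55 in cocktail 8 and 0.43 in cocktail 4.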

How the results depend on the processing

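The 2 control libraries limit these results most: leaving out 1 of them left 15 or 11 of the 43 decreases called, all with the same sign, and the lone control is then assumed to vary like the other groups. These decreases were picked with both controls, so their kept sign is partly fixed in advance. Scarce high-numbered genes are limited by their few reads. With limma on log2(TPM + 1) the median of all genes was 0.15 over 19867 genes, against 0.03 over 14514 in the count fit and 0.10 over 24993 in the count fit without the filter, and that of the members was -0.077, against -0.21; both medians of the members lay below those of all genes. The replicate numbers did not pair the libraries (correlations of deviations between -0.12 and 0.13 over 36 pairs of groups, 1 above 0.1); the replicate block gave 41 decreases and 13 increases, and 1 lower call against the 7 other cocktails. The causes of the changes below were not tested, and the shares of all tested genes called in these other fits were not counted.

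In the mean of the cocktails, a 2-fold minimum gave 8 increases over all members, 3 decreases and 7 increases below 900 and 1 increase at 900 or above. limma on TPM gave 2 decreases below 900 and 5 increases at 900 or above, and without the filter there was 1 increase there. Leaving out 1 library at a time gave 11 to 53 decreases and 5 to 17 increases over all members, 9 to 38 and 0 to 3 at 900 or above, and 2 to 15 and 4 to 14 below 900; the medians ran from -0.27 to -0.13, -0.76 to -0.63 and 0.08 to 0.17.

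Against the control, a fit of the 2 groups alone gave decreases of 15 in cocktail 1, 25 in cocktail 2, 34 in cocktail 4, 24 in cocktail 5, 12 in cocktail 6, 10 in cocktail 7 and 8 in cocktail 8, and increases of 5 in cocktails 1 and 3, 10 in cocktail 5, 9 in cocktail 6 and 6 in cocktail 7. Cocktail 1 thus had fewer decreases than cocktails 2, 4 and 5, whereas it had the most in the fit over all 18 libraries. Not every cocktail is listed for each setting. limma on TPM gave decreases of 8 in cocktail 2 and 0 in cocktails 5 to 8, and increases of 3 in cocktail 6 and 4 in cocktail 8. Without the filter decreases were 9 in cocktail 5, 5 in cocktail 7 and 6 in cocktail 8, and DESeq2 gave 8 in cocktail 5 and 4 in cocktail 7. With no fold minimum cocktail 7 had 6 increases and cocktail 8 had 5 decreases. Without 1 library at a time, decreases and increases were 15 to 43 and 6 to 16 in cocktail 1, 2 to 4 and 1 to 4 in cocktail 2, 9 to 24 and 5 to 10 in cocktail 3, 8 to 12 and 6 to 11 in cocktail 4, 0 to 2 and 1 to 7 in cocktail 5, 0 to 1 and 0 to 1 in cocktail 6, 0 to 2 and 0 to 2 in cocktail 7, and 0 to 3 and 1 to 5 in cocktail 8. Against the 7 other cocktails, lower calls were 3 with DESeq2, 1 with RLE size factors, 9 without the filter, 8 with limma and 0 to 18 without 1 library, and higher calls 1 with DESeq2, 5 without the filter and 0 to 3 without 1 library. Of 2047 settings for 89 named or called members, 1867 left the result unchanged, whether called or not, 167 lost a call, 13 gained one and 0 reversed. Only 56 of these members had a call to lose.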
